A study of Mus musculus with 111 samples.

Results

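The elastic fibre genes examined here are Eln, Fbn1, Fbln1, Fbln2, Fbln5, Efemp2, Mfap2, Mfap4, Mfap5 and Emilin1, chosen as the structural and assembly proteins of the elastic fibre. Of these 10 genes, 8 had probesets (sets of short probes for 1 transcript) annotated to them alone, 14 probesets of the 27871 that stood for a single gene. Fbn1 and Efemp2 had no such probeset in the annotation used and were not analysed here. The values come from lungs of male C57BL6/J mice, 7 to 9 weeks old when purchased. A dose of 2 U/kg bleomycin, or of saline, was sprayed once into the trachea, and both entire lungs were taken on day 1, day 2 or at one of the weekly times (days 7, 14, 21, 28, 35). Each of the 14 groups held arrays of 8 mice, apart from the saline group of day 14 with 7, and every mouse had an array of its own. The authors had removed 1 saline array of day 14 as a potential outlier, by a principal component analysis of the expression values. A whole-lung level averages over every cell type present, so fewer cells of a type and less RNA per cell cannot be told apart.

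Elastic fibres give the lung its recoil. Fibroblasts and smooth muscle cells secrete tropoelastin, the product of Eln, onto a scaffold of fibrillin microfibrils, where fibulins and microfibril-associated proteins place it and enzymes of the lysyl oxidase family cross-link it into insoluble elastin. The bulk of this work is done during lung development, and the mature protein turns over very slowly. Bleomycin, a DNA-breaking antibiotic and cancer drug, is widely used to cause lung injury and scarring in mice.

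Promoter windows for 7 of the 10 genes were present among the mouse RefSeq promoters (build GRCm38.p6), with 12 windows between them. The 250 bases before the first annotated base of the gene are shown for Fbln1, Fbln5 and Mfap2, the measured members that fell on at least 1 day and whose window lay wholly outside the gene. Capitals mark CAGAC or its reverse complement, the core of the element bound by Smad proteins, which carry signals of transforming growth factor β.
Fbln1, chr15:85205699-85205948, plus strand: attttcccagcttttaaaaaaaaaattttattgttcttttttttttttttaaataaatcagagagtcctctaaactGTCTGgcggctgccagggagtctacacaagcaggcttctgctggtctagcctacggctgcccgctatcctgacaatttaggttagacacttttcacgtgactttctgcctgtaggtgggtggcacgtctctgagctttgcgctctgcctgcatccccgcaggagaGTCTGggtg
Fbln5, chr12:101819120-101819369, minus strand: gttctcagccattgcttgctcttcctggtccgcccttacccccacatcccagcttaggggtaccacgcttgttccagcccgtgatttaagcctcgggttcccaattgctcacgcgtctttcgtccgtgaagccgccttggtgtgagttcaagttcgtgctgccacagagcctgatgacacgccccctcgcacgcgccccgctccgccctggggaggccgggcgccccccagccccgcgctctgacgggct
Mfap2, chr4:141010174-141010423, plus strand: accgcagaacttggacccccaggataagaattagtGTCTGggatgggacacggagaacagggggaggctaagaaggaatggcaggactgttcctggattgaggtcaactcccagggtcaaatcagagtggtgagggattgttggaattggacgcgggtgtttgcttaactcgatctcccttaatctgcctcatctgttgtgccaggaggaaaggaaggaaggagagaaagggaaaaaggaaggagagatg
CAGAC occurred on either strand in 6 of the 12 windows, and in 42.2% of the 32851 windows of this length in the genome. The AP-1 motif TGANTCA was in 0 of the 12 windows (6.7% of all), TATAAA in 0 (12.4%) and the CArG box, the site of serum response factor, in 0 (1.5%). TGANTCA can overlap CAGAC at its end, and a match describes letters only. No window was used for Eln, Mfap4 or Mfap5.

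The first comparison asked on which days after the dose each gene differed between bleomycin and saline mice. Levels are log2 values after RMA (robust multi-array average) normalization, and each gene was read from its most variable probeset. The fold changes are log2 differences, bleomycin minus saline, with the standard error (SE) of a limma model fitted to all 15707 measured genes, and "rose" and "fell" stand for a Benjamini-Hochberg adjusted p under 0.05. Elastic fibre genes rose chiefly on days 7 and 14, when the median change over the 8 genes was 0.35 and 0.47, against -0.01 over all genes on both days. Eln, Mfap5, Emilin1 and Fbln2 rose on both of those days, Eln and Mfap5 were still higher on day 35, and Fbln1 moved the other way on day 7.

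On day 1 none of the 8 rose (0, against 14.7% of all genes) and none fell (0, against 16.7%). The unadjusted p was under 0.05 for Fbln1 (-0.27, SE 0.12, adjusted p = 0.073) and Fbln2 (-0.30, SE 0.13, adjusted p = 0.060), which thus missed the threshold. On day 2, 1 rose (14.2% of all genes) and 1 fell (13.1%). On day 7, 5 rose (25.7%) and 1 fell (21.9%). On day 14, 6 rose (21.9%) and 0 fell (19.7%), where Fbln1 had an adjusted p of 0.054. On day 21, 2 rose (20.5%) and 1 fell (18.9%). On day 28, 2 rose (11.5%) and 1 fell (11.8%). On day 35, 3 rose (16.9%) and 1 fell (12.5%). Outside days 7 and 14 the number that rose was thus never above 3 of 8. Eln alone was also over 2-fold higher, on day 7 (2.85% of all genes), day 14 (2.41%) and day 21 (1.14%).

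**Figure D1:**
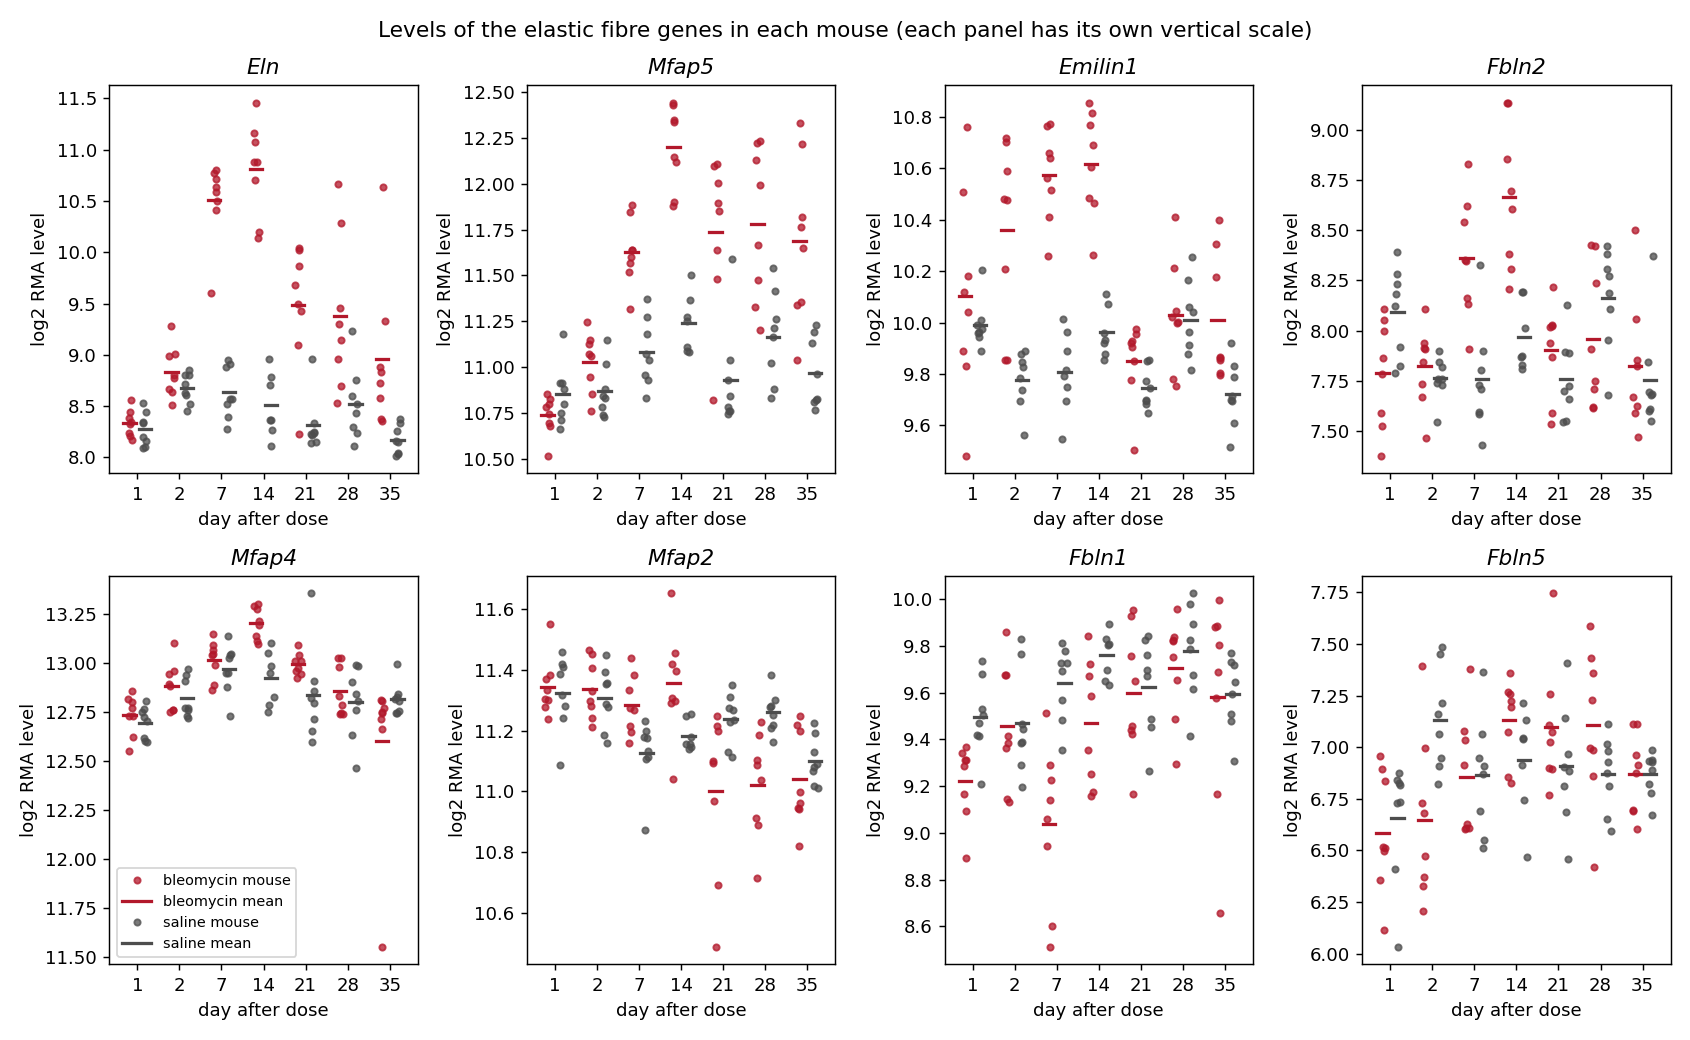
Log2 RMA level of each measured elastic fibre gene (vertical axis, own scale in each panel) by day after the dose (horizontal axis), with bleomycin mice in red to the left of saline mice in grey. Each point is a mouse and each bar the mean of its group. For Eln all 8 bleomycin mice lay above all saline mice on days 7 and 14.

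Eln encodes tropoelastin, the building block of the elastic core. On day 1 its level ran from 8.17 to 8.56 with a median of 8.33 in bleomycin mice, and from 8.09 to 8.53 with a median of 8.26 in saline mice. On day 2 the medians were 8.79 in bleomycin mice and 8.67 in saline mice. The groups overlapped on both days, with changes of 0.06 and 0.16 (SE 0.20, adjusted p = 0.85 and 0.61).

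On day 7 Eln lay between 9.60 and 10.80 in bleomycin mice (median 10.61), against 8.27 to 8.95 in saline mice (median 8.57). On day 14 it lay between 10.14 and 11.46 in bleomycin mice (median 10.88), against 8.11 to 8.96 in saline mice (median 8.37). On neither day did the groups overlap, and the lowest bleomycin mouse of day 14 stood more than 1 log2 unit above the highest saline mouse. Eln rose by 1.87 (SE 0.20, adjusted p = 2.57e-13) on day 7, a 3.66-fold change. It rose by 2.30 (SE 0.21, adjusted p = 1.38e-15) on day 14, a 4.93-fold change.

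From day 21 the bleomycin mice spread out. Eln ranged over 8.22 to 10.05 in bleomycin mice (median 9.59) and 8.14 to 8.96 in saline mice (median 8.24) on day 21. On day 28 it ranged over 8.53 to 10.67 in bleomycin mice (median 9.22) and 8.11 to 9.24 in saline mice (median 8.47). On day 35 it ranged over 8.36 to 10.64 in bleomycin mice (median 8.78) and 8.01 to 8.37 in saline mice (median 8.16). The number of bleomycin mice above every saline mouse was 7, 4 and 7 of 8 on these days. Eln was still higher by 1.17 (adjusted p = 1.58e-06), 0.86 (adjusted p = 0.00087) and 0.79 (adjusted p = 0.0014), each with SE 0.20. The standard deviation of the bleomycin mice was 0.60, 0.75 and 0.75 on days 21, 28 and 35. It was 0.39 and 0.46 on days 7 and 14, and saline mice lay between 0.14 and 0.35 on these 5 days. The limma model shares a single estimate of the spread over all 14 groups, so its SE does not widen on the late days. Across the alternative fits described at the end, the adjusted limma p of Eln was at most 0.0011, 0.030 and 0.024 on days 21, 28 and 35.

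Single mice stood apart on days 7, 21 and 35. The lowest Eln level of day 7, 9.60, belonged to bleomycin replicate 1, and no fit was run without it. Its cross-linking enzymes, receptors of elastic fibre proteins, and smooth muscle and myofibroblast markers stood below its group. Its other microfibril and fibulin genes and its alveolar and adventitial fibroblast, mesothelial, and alveolar type I and II markers stood above it. The lowest Eln level of day 21, 8.22, belonged to bleomycin replicate 4, whose array was among those least like its group. Its cardiac muscle, adipose, endothelial, alveolar fibroblast, and smooth muscle and myofibroblast markers stood above the other mice of the group. Its cross-linking enzymes, other microfibril and fibulin genes, elastin-degrading proteases, protease inhibitors, receptors of elastic fibre proteins and leukocyte markers stood below them. Without this mouse the rise on day 21 was 1.35 (adjusted p = 1.96e-08). On day 28 bleomycin replicates 5 and 8 had Eln levels of 10.28 and 10.67, against 8.53 to 9.46 in the other bleomycin mice. No fit was run without these mice. The highest level of day 35, 10.64, belonged to bleomycin replicate 3, whose array was also among those least like its group. Its cross-linking enzymes, protease inhibitors, receptors of elastic fibre proteins and cartilage markers stood above the group. Its alveolar fibroblast, endothelial, alveolar type I and II, and adipose markers stood below it. Without this mouse the rise on day 35 was 0.55 (adjusted p = 0.022). In the saline group of day 21, replicate 4 had the highest Eln level, 8.96, and a mean leukocyte marker level of 11.05, against 10.25 to 10.73 in the others. Its cross-linking enzymes (10.03, against 9.53 to 9.88) and protease inhibitors (10.79, against 10.12 to 10.49) also stood above theirs. So did its alveolar type II markers, while its alveolar type I markers stood below.

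Mfap5 encodes a small glycoprotein of the microfibril, MAGP-2, which binds fibrillins. On day 7 it lay between 11.31 and 11.88 in bleomycin mice (median 11.62) and between 10.83 and 11.37 in saline mice (median 11.06). On day 14 it lay between 11.88 and 12.44 in bleomycin mice (median 12.24) and between 11.08 and 11.50 in saline mice (median 11.25). The groups did not overlap on day 14, and on day 7 the overlap was down to 1 bleomycin mouse. Mfap5 rose by 0.54 on day 7 (SE 0.13, adjusted p = 0.00024) and by 0.96 on day 14 (SE 0.13, adjusted p = 4.11e-09).

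Mfap5 kept most of that rise. Its medians were 11.87, 11.83 and 11.71 in bleomycin mice on days 21, 28 and 35, against 10.81, 11.19 and 10.89 in saline mice. Of the bleomycin mice, 6, 5 and 7 of 8 stood above every saline mouse of the day. The changes were 0.81, 0.62 and 0.72 (SE 0.13 each, adjusted p = 3.37e-07, 0.00020 and 8.06e-06).

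Emilin1 encodes a glycoprotein at the border of elastin and microfibril. It was the 1 gene of the 8 to rise on day 2. It then lay between 9.85 and 10.72 in bleomycin mice (median 10.48) and between 9.56 and 9.89 in saline mice (median 9.81), with 6 of 8 bleomycin mice above every saline mouse. On day 7 it lay between 10.26 and 10.77 in bleomycin mice (median 10.60) and between 9.55 and 10.01 in saline mice (median 9.80). On day 14 it lay between 10.26 and 10.85 in bleomycin mice (median 10.65) and between 9.85 and 10.11 in saline mice (median 9.93). The groups overlapped on day 2 but not on days 7 and 14.

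Emilin1 rose by 0.58 on day 2 (SE 0.10, adjusted p = 3.26e-06), 0.76 on day 7 (SE 0.10, adjusted p = 4.19e-10) and 0.66 on day 14 (SE 0.10, adjusted p = 1.61e-07). On days 21 and 28 the changes were 0.11 and 0.02 (adjusted p = 0.42 and 0.93). A rise of 0.29 on day 35 (adjusted p = 0.024) did not pass without bleomycin replicate 3 (0.24, adjusted p = 0.074) or without bleomycin replicate 8 (0.23, adjusted p = 0.084), nor with all saline mice as control (0.15, adjusted p = 0.14). On day 1 bleomycin mice ranged over 9.48 to 10.76, with 2 above and 3 below every saline mouse (9.89 to 10.20), and the change was 0.11 (adjusted p = 0.43).

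Fbln2 encodes fibulin-2, which bridges elastin and fibrillin. It rose on days 7 and 14 alone. On day 7 it lay between 7.91 and 8.83 in bleomycin mice (median 8.35) and between 7.43 and 8.33 in saline mice (median 7.72). On day 14 it lay between 8.20 and 9.13 in bleomycin mice (median 8.65) and between 7.81 and 8.19 in saline mice (median 7.87), with no overlap. The changes were 0.60 (SE 0.13, adjusted p = 4.69e-05) and 0.70 (SE 0.13, adjusted p = 8.63e-06). On days 21, 28 and 35 they were 0.14, -0.20 and 0.07, with adjusted p of 0.41, 0.27 and 0.75.

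Mfap4 encodes a microfibril-associated protein that binds tropoelastin. On day 14 it lay between 13.10 and 13.30 in bleomycin mice (median 13.20) and between 12.75 and 13.11 in saline mice (median 12.95). It rose by 0.28 (SE 0.09, adjusted p = 0.0053), with 7 of 8 bleomycin mice above every saline mouse. On day 21 the change was 0.16 (SE 0.08, adjusted p = 0.13). Without saline replicate 4 of that day, which had a level of 13.36, Mfap4 rose by 0.23 (adjusted p = 0.017). On day 35 it fell by 0.21 (SE 0.08, adjusted p = 0.042), and that call rested on a single mouse. Bleomycin replicate 8 had a level of 11.55, against 12.66 to 12.81 in the other 7 bleomycin mice and 12.74 to 12.99 in saline mice, and without it the change was -0.06 (adjusted p = 0.50). The same mouse had the lowest Fbln1 level of its group, 8.66, a mean adventitial fibroblast marker level of 10.44 (10.72 to 11.02 in the other bleomycin mice) and a mean mesothelial marker level of 10.09 (9.16 to 9.64 in the others). Its alveolar type I and II markers also stood above those of the others. The part of these cell types in its Mfap4 level was not tested.

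Mfap2 encodes MAGP-1, the microfibril protein related to that of Mfap5. Its changes were small and turned direction. It rose by 0.16 on day 7 (SE 0.07, adjusted p = 0.042) and 0.17 on day 14 (SE 0.07, adjusted p = 0.033). The rise of day 7 did not pass without saline replicate 3 (0.12, adjusted p = 0.13), a mouse that had the lowest Mfap2 level of its group, 10.87. Its mean smooth muscle and myofibroblast marker level was 11.20, against 9.96 to 10.75 in the other saline mice. Its adventitial fibroblast, cartilage and adipose marker levels also stood above theirs. Its alveolar fibroblast, endothelial, and alveolar type I and II marker levels stood below theirs. With all saline mice as control the change of day 7 was 0.06 (adjusted p = 0.32). The rise of day 14 missed the threshold with array medians subtracted (adjusted p = 0.053). Mfap2 fell by 0.24 on day 21 (SE 0.07, adjusted p = 0.0023) and by 0.24 on day 28 (SE 0.07, adjusted p = 0.0046), and the fall of day 21 had an adjusted p of 0.066 when each day was fitted by itself. On day 21 Mfap2 lay between 10.49 and 11.25 in bleomycin mice (median 11.10) and between 11.11 and 11.35 in saline mice (median 11.25). On day 28 it lay between 10.72 and 11.23 in bleomycin mice (median 11.06) and between 11.16 and 11.38 in saline mice (median 11.27). Below every saline mouse were 5 of 8 bleomycin mice on day 21 and 6 of 8 on day 28.

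On those 2 days all 7 of the smooth muscle and myofibroblast markers were lower (18.9% and 11.8% of all genes). Their median change was -1.24 on day 21 and -0.75 on day 28. Their mean level per mouse ran from 9.31 to 9.82 in bleomycin mice and from 10.34 to 11.17 in saline mice on day 21. On day 28 it ran from 9.22 to 10.64 in bleomycin mice and from 10.26 to 11.00 in saline mice. All 7 markers were also lower on day 1 (16.7% of all genes), with a median change of -0.62. The change of Mfap2 was then 0.02 (adjusted p = 0.85). The part of these cells in the lower Mfap2 level was not tested.

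Fbln1 encodes fibulin-1, found within the elastic core. It was the only 1 of the 8 to fall on day 7, when it lay between 8.51 and 9.51 in bleomycin mice (median 9.10) and between 9.35 and 9.81 in saline mice (median 9.71). Of the bleomycin mice 7 of 8 were below every saline mouse. The change was -0.61 (SE 0.12, adjusted p = 1.34e-05). On days 21, 28 and 35 it was -0.03, -0.07 and -0.01, with adjusted p of 0.88, 0.72 and 0.95.

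Fbln5 encodes fibulin-5, which binds tropoelastin and lysyl oxidase family enzymes and is needed for normal elastic fibres in mice. It fell on day 2 alone, when it lay between 6.21 and 7.39 in bleomycin mice (median 6.58) and between 6.82 and 7.48 in saline mice (median 7.11). The change was -0.48 (SE 0.14, adjusted p = 0.0038). The saline mean of day 2, 7.13, was the highest of the 7 saline means (6.66 to 7.13), and against all saline mice together the change was -0.24 (adjusted p = 0.054).

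**Figure D2:**
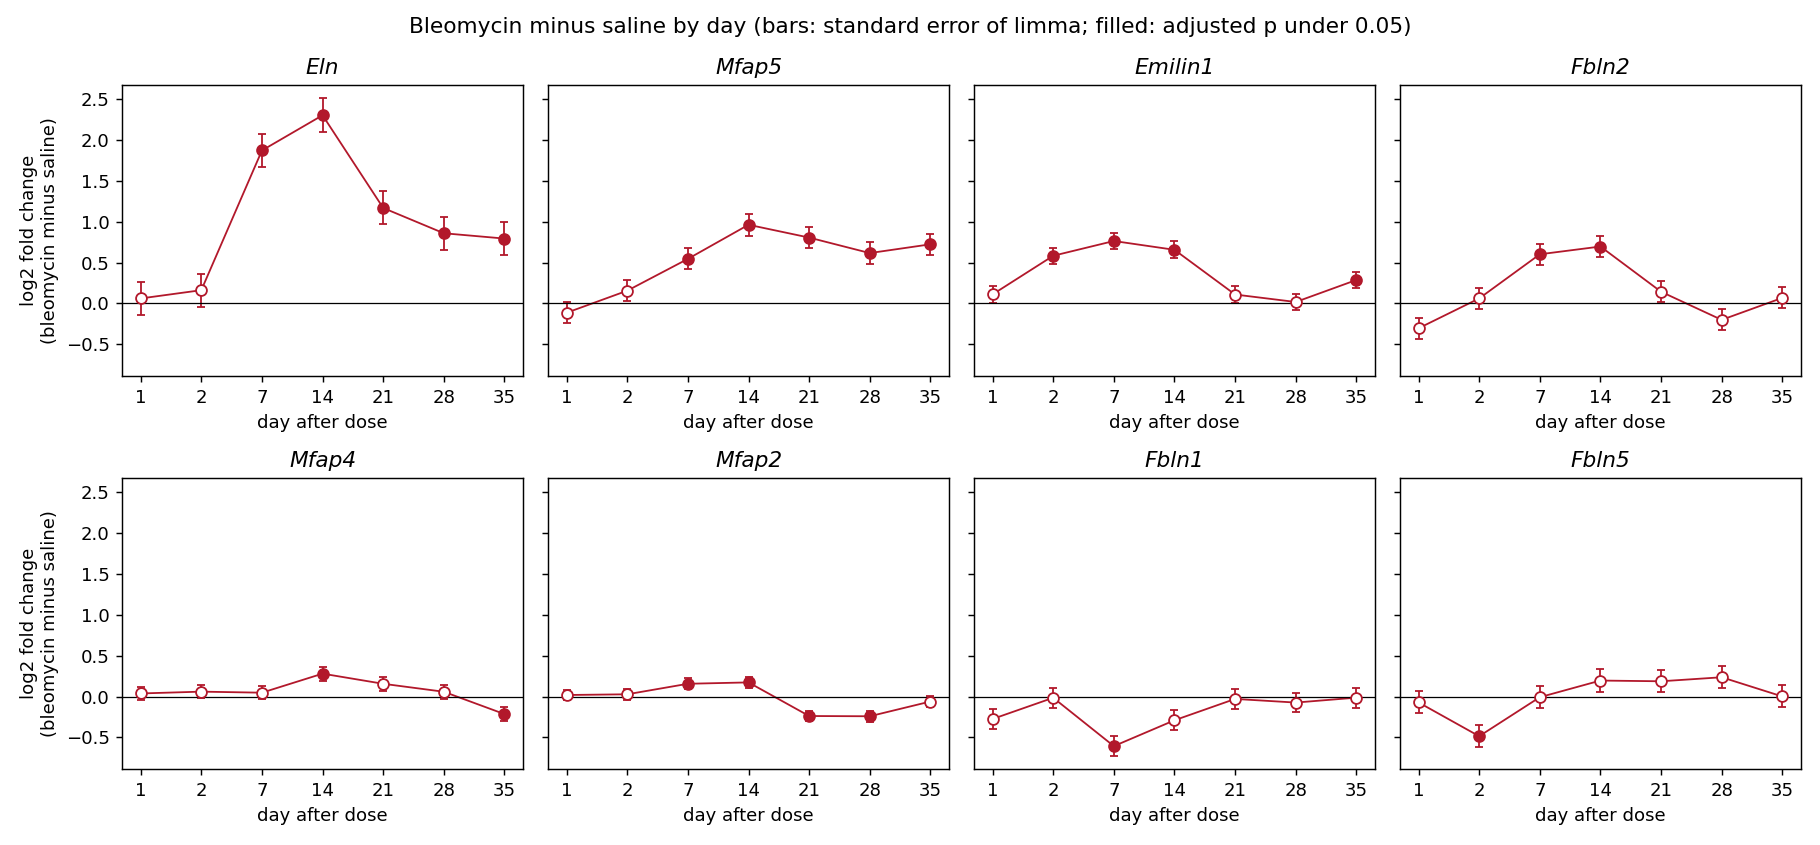
Log2 fold change of bleomycin over saline mice (vertical axis, same scale in all panels) by day after the dose for the 8 measured genes. Bars are the SE of limma, and filled points passed an adjusted p of 0.05. Eln reached 2.30 on day 14, Mfap5 0.96, and Mfap2 changed sign between days 14 and 21.

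Some genes were read by more than 1 probeset, and the readings can be set side by side within a gene. The brighter second probeset of Eln passed on the same 5 days, with 1.53 on day 7 and 1.75 on day 14. The second probeset of Mfap5 passed on the same 5 days, with changes of 0.31 to 0.61. The dimmer second probeset of Emilin1 passed on days 2, 7, 14 and 35, with 0.50, 0.51, 0.48 and 0.24. For these 3 genes the calls were the same with smaller changes on most days.

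Readings of the fibulins differed more. For Fbln1 the day 7 change was -0.24 with the brightest of its 3 probesets (adjusted p = 0.031) and -0.24 with the next in level (adjusted p = 0.079), and the brightest also fell on day 1 (-0.30, adjusted p = 0.012). For Fbln5 the brighter probeset fell on day 2 (-0.32, adjusted p = 3.84e-05) and rose on day 14 (0.28, adjusted p = 0.00037), day 21 (0.21, adjusted p = 0.0056) and day 28 (0.18, adjusted p = 0.033). It stood at the 94.4 percentile of all probesets in mean level, and the more variable probeset read above for Fbln5 at the 25.0 percentile. The changes of the dim probeset on days 14, 21 and 28 were 0.20, 0.19 and 0.24, with an SE of 0.14, against an SE of 0.06 to 0.07 for the bright probeset.

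**Figure D3:**
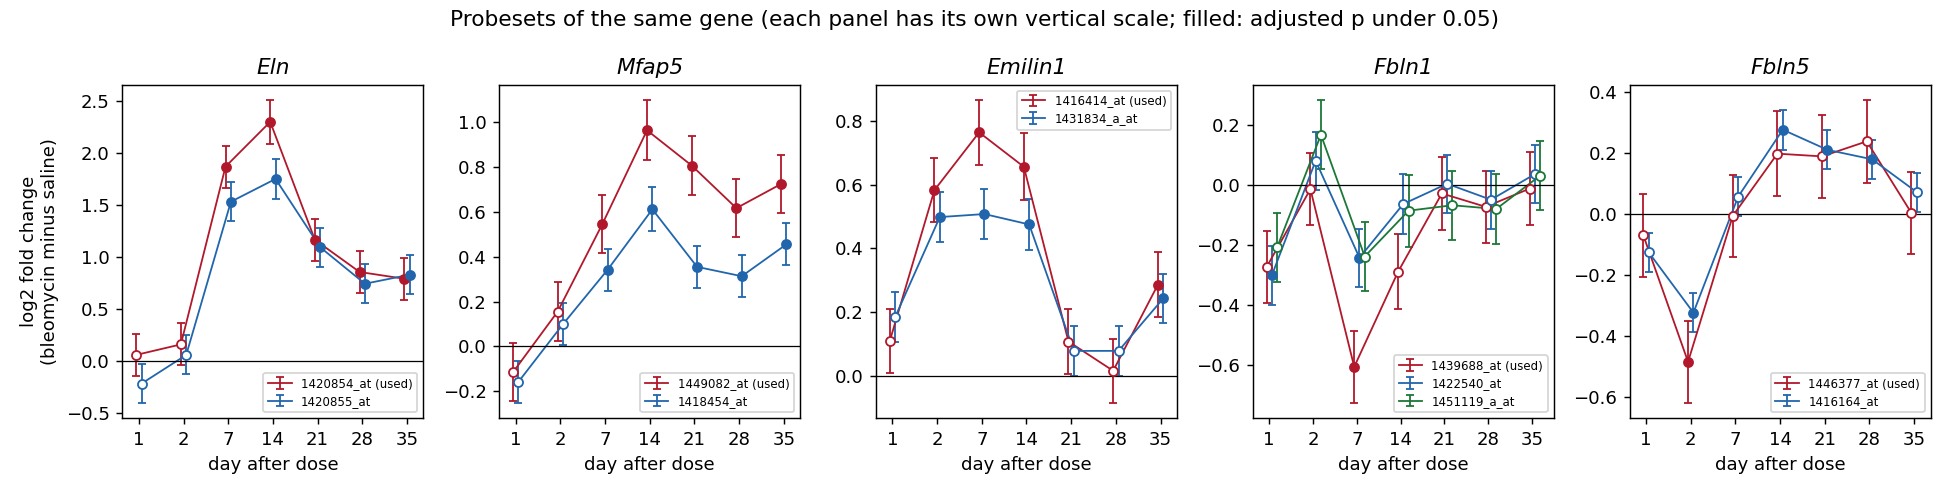
Log2 fold change of bleomycin over saline mice by day for each probeset of the 5 genes with more than 1, with the SE of limma as bars and filled points where the adjusted p was under 0.05. The 2 Eln probesets passed on days 7 to 35, and for Fbln5 the brighter one passed on days 2, 14, 21 and 28.

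A second comparison asked whether the response itself differed between periods. The mean response of days 7 and 14 minus that of days 1 and 2 was higher for 5 of the 8 genes (20.4% of all genes) and lower for 1 (15.8%). It was 1.98 for Eln (SE 0.20, adjusted p = 2.42e-13), 0.77 for Fbln2, 0.73 for Mfap5, 0.37 for Fbln5 and 0.36 for Emilin1 (adjusted p = 9.33e-07, 3.36e-06, 0.024 and 0.0029). For Fbln5 the changes on days 7 and 14 did not pass in limma (-0.01 and 0.20, adjusted p = 0.97 and 0.27). Its change on day 2 was -0.48, against the highest of its saline means. For Fbln1 the difference between these periods was -0.30 (adjusted p = 0.041). It did not pass without saline replicate 3 of day 7 (-0.29, adjusted p = 0.053). The mean response of days 21, 28 and 35 minus that of days 7 and 14 was higher for 1 gene (11.9% of all genes) and lower for 4 (14.9%). It was -1.15 for Eln (SE 0.19, adjusted p = 7.18e-07), -0.65 for Fbln2, -0.57 for Emilin1 and -0.34 for Mfap2, and 0.41 for Fbln1. For Mfap5 this difference was -0.04 (SE 0.12, adjusted p = 0.85), and it did not pass for Mfap4 or Fbln5 either. With its brightest probeset Fbln1 passed in neither contrast, with -0.04 (adjusted p = 0.77) and 0.15 (adjusted p = 0.21).

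Saline levels also moved between days. An F test over the 7 saline groups passed for Fbln2, Mfap2, Mfap5 and Emilin1 (4 of 8, against 54.1% of all genes), and the saline means of a gene spanned 0.22 to 0.50. The saline mean of Eln ran from 8.17 on day 35 to 8.67 on day 2 (adjusted p = 0.16). Each bleomycin group was therefore set against the saline mice of its own day.

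To see whether the genes responded equally, the level of each gene minus that of Eln was taken within each mouse and compared between bleomycin and saline mice by an exact permutation test (two-sided, adjusted over 49 tests of 7 genes and 7 days). On days 7 and 14 the response was smaller than that of Eln for all 7 genes, with differences of -1.11 (Emilin1, day 7) to -2.59 (Fbln1, day 14). The adjusted p was at most 0.00080, and the smallest unadjusted p that this exact test can give is 0.00016. Few genes of any kind changed as much as Eln, since 2.85% and 2.41% of all genes were over 2-fold higher on these days. A response smaller than that of Eln is thus not particular to these 7 genes, and the test was not run over all genes. On day 1 the differences of Fbln1, Fbln2 and Mfap5 from Eln were -0.33, -0.37 and -0.17 (exact adjusted p = 0.0034, 0.025 and 0.0038). On day 2 that of Fbln5 was -0.65 (SE 0.22, exact adjusted p = 0.018), and the response of Emilin1 was larger than that of Eln by 0.42 (SE 0.12, exact adjusted p = 0.011). On day 21 all 7 genes were below Eln, with exact adjusted p at most 0.0093. The difference was smallest for Mfap5, at -0.36 (SE 0.09, exact adjusted p = 0.0017). On days 28 and 35 the differences of Mfap5 from Eln were -0.24 (SE 0.17, exact adjusted p = 0.24) and -0.07 (SE 0.19, exact adjusted p = 0.74). Emilin1, Fbln1, Fbln2, Mfap2 and Mfap4 were below Eln on both days. The difference of Fbln5 was -0.62 on day 28 (exact adjusted p = 0.051) and -0.79 on day 35 (exact adjusted p = 0.0011). Probesets can compress changes to different degrees, as those of Eln show, and this limits such differences.

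Over all arrays, 56 of bleomycin and 55 of saline mice, the 5 genes whose levels followed Eln most closely were Col5a1, Col5a2, Mmp14, Cd276 and Adamts12, with Pearson r of 0.95, 0.95, 0.94, 0.93 and 0.93. Col5a1 and Col5a2 encode chains of type V collagen, Mmp14 a membrane-bound matrix protease and Adamts12 a secreted one, and Cd276 an immune checkpoint molecule. These values describe arrays that share days and treatments. Within bleomycin arrays r lay between 0.92 and 0.96 for the 5, and within saline arrays between 0.44 and 0.77. Of the other elastic fibre genes Mfap5 ranked highest, at place 251 of 15707 (r = 0.84), followed by Emilin1 (0.71), Fbln2 (0.63), Mfap4 (0.47), Fbln5 (0.30), Mfap2 (0.11) and Fbln1 (-0.27). Their order was not the same within a treatment. Within bleomycin arrays r was 0.79 for Mfap5, 0.77 for Fbln2 and 0.62 for Emilin1, and -0.21 for Fbln1. Within saline arrays it was 0.57 for Mfap5, 0.14 for Fbln2, 0.33 for Emilin1 and 0.42 for Fbln1.

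Genes that act with the fibre were then described by list. All 4 cross-linking enzymes in the list (Lox, Loxl1, Loxl3 and Loxl4) rose on days 7 and 14 (25.7% and 21.9% of all genes). None fell on any day, and Loxl2 was not in the list. Lox rose by 1.19 on day 7 (SE 0.14, adjusted p = 2.88e-12), Loxl3 by 0.71 and Loxl1 by 0.55 on day 14, and Loxl4 by 0.46 on day 7. The median change of the 4 was 0.48 on day 7 and 0.63 on day 14, against 0.35 and 0.47 for the elastic fibre genes. On day 28, 0 of the 4 passed in limma, and 1 had an unadjusted p under 0.05 (Lox, 0.35, adjusted p = 0.055).

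Of 16 other microfibril and fibulin genes 4 rose and 8 fell on day 7 (25.7% and 21.9% of all genes). On day 14, 5 rose and 4 fell (21.9% and 19.7% of all genes). Fbn2, a fibrillin of developing tissue, rose by 1.96 on day 14 (SE 0.22, adjusted p = 2.95e-12). Emilin3 rose by 1.07 and Ltbp2 by 1.02 on day 14, and Fbln7 by 1.23 on day 35. The latent transforming growth factor β binding proteins did not move as 1: Ltbp2 rose, while Ltbp3 fell by 0.97 on day 1 and Ltbp4, which also takes part in elastin assembly in mice, fell by 0.87 on day 7. Thsd4 fell by 0.50 on day 2 and Adamts10, whose product binds fibrillin microfibrils, by 0.44 on day 21.

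Of 10 elastin-degrading proteases 5 rose and 2 fell on day 7 (25.7% and 21.9% of all genes). On day 14, 4 rose and 1 fell (21.9% and 19.7% of all genes). Mmp12, macrophage elastase, rose by 3.60 on day 14 (SE 0.32, adjusted p = 1.38e-15), a 12.1-fold change. Ctsk rose by 1.62, Mmp2 by 1.18 and Ctss by 0.67 on the same day. Mmp9 fell by 1.39 on day 14, Ctsl by 0.34 on day 2 and Ctsg by 0.29 on day 21. Of 4 measured leukocyte markers 1 was higher and 1 lower on both days, with a median change of -0.14 on day 7 and -0.01 on day 14. The macrophage marker Cd68 rose by 1.34 on day 7 (SE 0.17, adjusted p = 3.13e-11) and the neutrophil marker S100a8 fell by 1.24 on day 14 (SE 0.32, adjusted p = 0.00098). The part of these cells in the protease levels was not tested.

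Of 5 protease inhibitors Timp1, which inhibits matrix metalloproteinases, rose most, by 3.29 on day 7 (SE 0.36, adjusted p = 2.96e-13). Slpi rose by 0.75 on day 2, Timp2 by 0.26 on day 1 and Timp3 by 0.23 on day 2, and Serpinb1a fell by 0.32 on day 1. Of 9 receptor genes 5 rose and 1 fell on day 7 (25.7% and 21.9% of all genes). The integrin gene Itgav rose by 1.18 on day 7 (SE 0.11, adjusted p = 2.13e-15) and Itgb1 by 0.41, while Itga8 fell by 0.70 on day 7 and Itga5 by 0.51 on day 21, after a rise of Itga5 by 0.49 on day 2. Ctsa and Glb1, whose products belong to the elastin receptor complex, rose by 0.49 on day 14 and 0.48 on day 7.

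**Figure D4:**
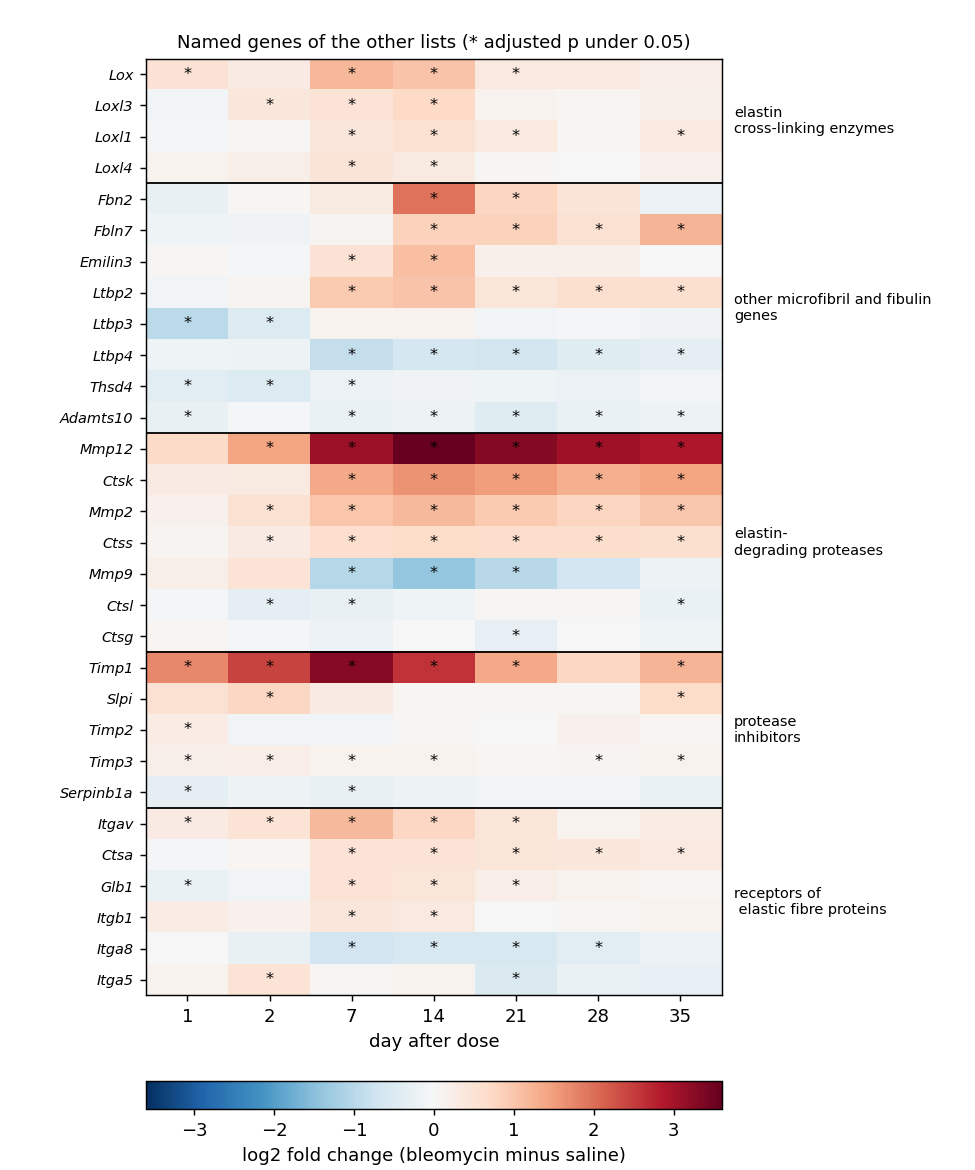
Log2 fold change of bleomycin over saline mice (colour, red higher and blue lower in bleomycin mice) by day for the named genes of the 5 lists that act with the elastic fibre. Stars mark an adjusted p under 0.05. The 4 cross-linking enzymes all carry stars on days 7 and 14, and Mmp12 reaches 3.60 on day 14.

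The lung markers Sftpc, Ager and Cldn5 were at the 99.1 to 100.0 percentile of gene levels, and Abca3, Cdh5 and Ptprb of the same kinds at the 53.3 to 60.6 percentile. On days 7 and 14, when Eln rose most, 5 of 7 alveolar fibroblast markers and 5 of 6 endothelial markers were lower and 0 of either were higher. Over all genes 21.9% were lower and 25.7% higher on day 7, and 19.7% lower and 21.9% higher on day 14. Of 4 measured alveolar type II markers 3 were lower on day 7 and 4 on day 14. Of 5 mesothelial markers 3 were lower on both days, with medians of -0.49 and -0.75, and 1 was higher on day 7. The mean alveolar fibroblast marker level per mouse ran from 9.04 to 9.34 in bleomycin mice and from 9.39 to 9.69 in saline mice on day 7. On day 14 the ranges overlapped, at 8.98 to 9.54 in bleomycin mice and 9.51 to 9.62 in saline mice. Of 7 smooth muscle and myofibroblast markers 2 were lower on day 7 and 0 on day 14, and 0 were higher on either day. Of 6 adventitial fibroblast markers 1 was higher and 1 lower on day 7. The mean cardiac muscle marker level ran from 7.40 to 11.13 in bleomycin mice and from 8.38 to 12.09 in saline mice on day 14, with 1 of 6 markers lower, and all 3 measured adipose markers were lower that day. The part of these tissues and cells in the levels of the elastic fibre genes was not tested.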

How the data were processed

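The authors amplified whole-lung RNA, hybridized 1 mouse to each Affymetrix mouse array, dropped probes that mapped to more than 1 gene or by an old sequence, and applied RMA normalization. The deposited values are log2 expression levels from 2.75 to 14.7, with array medians from 8.61 to 8.73, and the genome build of the probe mapping is not given in the sources used here. Of 32688 probesets, 314 annotated to several genes and 4503 to none were left out. The most variable probeset was kept for each of 15707 genes, and 7093 genes had more than 1. The study's methods name a variance filter without its details and then map genes to human orthologs, which was not done here. Groups come from the labels. The 14 group means were estimated in a single model with limma 3.58.1 (lmFit and eBayes) in R 4.3.3, with Benjamini-Hochberg adjustment over all genes within a contrast. No dim gene was left out. The members and gene lists were chosen with earlier results of these data known. Genes of the other lists were named by rule, up to 4 in each direction by the size of a passing change, and the mice and probesets singled out were chosen after their values were seen. The number of mice limits the precision. The limma p-values set each difference against a spread between mice that is estimated over all 14 groups together. Alternatives were the brightest probeset or the mean of probesets, no dim genes, other scalings, contrasts without moderation, separate fits by day, a control of all saline mice, array weights, replicate number as a block and leaving out single arrays.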

Additional observations from a re-analysis of the deposited data

Results flagged for a closer look

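Among 112 combinations of a gene and a group, 12 held a mouse far from the rest by Dixon's criterion, where chance alone gives about 1 in 20, or 5.6. In bleomycin mice these were the low Eln level of replicate 1 on day 7 (9.60), the high Eln level of replicate 3 on day 35 (10.64), the high Mfap2 level of replicate 5 on day 1 (11.55), the low Mfap4 level of replicate 8 on day 35 (11.55) and the low Emilin1 level of replicate 4 on day 21 (9.50). In saline mice replicate 4 of day 21 stood high for Eln (8.96), Mfap4 (13.36) and Mfap5 (11.59). Replicate 7 of day 35 stood high for Fbln2 (8.37) and Mfap4 (12.99), replicate 4 of day 1 high for Emilin1 (10.20) and replicate 3 of day 7 low for Mfap2 (10.87).

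Responses that differed between periods by the contrast of the limma fit were also picked out. Days 7 and 14 minus days 1 and 2 gave 1.98 for Eln, 0.77 for Fbln2, 0.73 for Mfap5, 0.37 for Fbln5, 0.36 for Emilin1 and -0.30 for Fbln1. Days 21, 28 and 35 minus days 7 and 14 gave -1.15 for Eln, -0.65 for Fbln2, -0.57 for Emilin1, -0.34 for Mfap2 and 0.41 for Fbln1.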

How the results depend on the processing

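Under 15 alternatives no change that had passed reversed, and the rises of Eln, Mfap5, Emilin1 and Fbln2 on days 7 and 14 passed in each. The counts of genes that rose on days 7, 14, 21, 28 and 35 stayed within 1.5 times, though with all saline mice as control Mfap2 no longer passed on day 7 nor Emilin1 on day 35, and Mfap4 passed on day 7 (0.18). Counts of genes that fell moved, and the cause was not tested except where fewer samples or genes entered. On day 1 the count that fell was 1 with the brightest probeset, without dim genes, with 1 fit per day, without bleomycin replicate 3 of day 35 and without bleomycin replicate 8 of day 35, and 3 with all saline mice as control. On day 14 it was 1 without dim genes, after repeated quantile normalization, after subtraction of array medians, with 1 fit per day, with array weights and without bleomycin replicate 8 of day 35. On day 2 it was 0 without dim genes, where Fbln5 was left out, and 0 with all saline mice, under which 1 gene rose on day 1 and 2 on day 2. On day 21 it was 0 with 1 fit per day. On day 35 it was 0 with 1 fit per day, with array weights and without bleomycin replicate 8, and 2 with all saline mice. For days 7 and 14 minus days 1 and 2 the count lower was 0 with the brightest probeset, the mean of probesets, array weights and without saline replicate 3 of day 7. For days 21 to 35 minus days 7 and 14 the count higher was 0 with the brightest probeset and the mean of probesets. With the replicate block 5 genes rose on day 7 and 6 on day 14, and no call changed. The deviations of 55 same-numbered pairs correlated at -0.33 to 0.41 (median 0.06), with 23 pairs over 0.1. Pairs with unlike numbers were not compared, so whether the numbers pair mice was not tested. Leaving out 4 single arrays besides bleomycin replicate 3 of day 35 was chosen after seeing the data. Values near the threshold, such as those of Mfap2 on day 7, are limited by 7 or 8 mice a group.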
